A study of Mus musculus with 2 samples.

Results

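Of the 40119 H3K9me3 peaks deposited for mouse intestinal stem cells, 344 held more than 10 tags of the control library. These 344 peaks were chosen by that control tag count alone, with unplaced scaffolds included, so their control level and their fold over control describe the choice and were not tested. A tag is the unit in which aligned reads were counted in a peak, and counts come in steps of 0.5 tag. The ChIP library was made with an antibody against H3K9me3 and the control library carries the word input in its title and IgG as its antibody. Both came from intestinal stem cells with high GFP and low CD24, sorted by flow cytometry. The donors were C57BL/6 mice, 8 weeks old, of the genotype Lgr5-EGFP-IRES-creERT2;setdb1fl/fl, and no other genotype was sampled. Cells of 12 mice were pooled and the labels give neither their sex nor whether Setdb1, which encodes an H3K9 methyltransferase, had been deleted. The GFP and the inducible Cre are both driven from the Lgr5 gene, a marker of cycling crypt stem cells. There was 1 library per group, so no difference had a replicate check, and every interval given covers counting error only (95%, exact Poisson for tags and exact Clopper-Pearson for shares). The control library is seen only inside the peaks, and its total depth was 0.684 of the ChIP depth.

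H3K9me3 is a histone mark of silenced chromatin that lies over transposable elements, tandem repeats and many duplicated genes. A control library measures how many reads a stretch of the genome gives without enrichment for the mark. Where the reference sequence holds 1 copy of a sequence that the mouse carries many times, reads of all copies fall on that 1 copy in the ChIP and in the control alike. Ribosomal RNA genes are the textbook case, since they stand in long tandem arrays of which the assembly holds little. Mouse autosomes and the X chromosome have the centromere at their first end, so their last peak lies towards the telomere of the long arm. Copy number was not measured here, and its part in the values below was not tested.

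The following promoter windows lie at some of the 344 peaks and show how some of their sequences repeat. Each runs from 250 bases before to 50 bases after a gene start in RefSeq on GRCm38.p6. The first pair comes from predicted genes in a stretch on chromosome 6 that starts at Rn4.5s, the gene of the rodent 4.5S RNA (Gm40364 at chr6:47679657-47679956 and Gm52861 at chr6:47738587-47738886, plus strand). Capitals mark the bases outside every 20-base run that recurs in another, non-overlapping promoter window of the genome, so lower case is sequence with a second copy.
Gm40364: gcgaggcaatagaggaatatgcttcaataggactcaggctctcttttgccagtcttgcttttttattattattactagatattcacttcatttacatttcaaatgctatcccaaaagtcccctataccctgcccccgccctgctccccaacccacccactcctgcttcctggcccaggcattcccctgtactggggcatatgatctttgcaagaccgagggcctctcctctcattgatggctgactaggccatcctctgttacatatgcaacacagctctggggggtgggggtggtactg
Gm52861: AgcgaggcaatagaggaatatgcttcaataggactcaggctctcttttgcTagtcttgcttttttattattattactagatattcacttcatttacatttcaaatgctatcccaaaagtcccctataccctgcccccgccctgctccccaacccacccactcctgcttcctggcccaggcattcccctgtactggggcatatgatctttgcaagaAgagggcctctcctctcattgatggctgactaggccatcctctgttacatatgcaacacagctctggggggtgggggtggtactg
The Gm40364 window had no base in capitals, and Gm40369 on the same stretch (chr6:47653742-47654041) had the same 300 bases throughout. Gm52861 shared 240 of its 281 runs of 20 bases with Gm40364. The second pair comes from predicted genes on chromosome 12, Gm3973 (chr12:19489970-19490269, plus strand) and Gm38699 (chr12:23800906-23801205, minus strand). Like the first pair, they lie at separate peaks, and they share 72 of their 281 runs. Their peaks (chr12:19489529-19491386 and chr12:23799528-23802356) held 45.2 and 43.7 ChIP tags per kb and 6.46 and 5.30 control tags per kb, at folds of 4.79 and 5.63.
Gm3973: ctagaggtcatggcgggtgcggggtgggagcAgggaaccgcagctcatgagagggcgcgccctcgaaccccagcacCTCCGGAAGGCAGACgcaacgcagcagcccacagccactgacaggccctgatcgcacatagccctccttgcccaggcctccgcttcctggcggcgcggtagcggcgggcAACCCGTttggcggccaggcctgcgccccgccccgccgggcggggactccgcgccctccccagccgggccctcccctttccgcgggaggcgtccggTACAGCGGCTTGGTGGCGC
Gm38699: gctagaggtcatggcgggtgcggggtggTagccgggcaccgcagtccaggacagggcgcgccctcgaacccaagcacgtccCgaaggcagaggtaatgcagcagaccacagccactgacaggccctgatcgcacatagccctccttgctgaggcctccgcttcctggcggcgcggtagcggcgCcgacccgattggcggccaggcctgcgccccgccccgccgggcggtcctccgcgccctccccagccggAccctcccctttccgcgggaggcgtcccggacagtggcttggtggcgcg
Both are rich in G and C, at 74.0% and 73.0%. The last windows had at most 0.712% of their runs shared with another promoter window, and copies outside promoter windows were not looked for. For contrast, these windows are shown with capitals on every CG dinucleotide, the site of DNA methylation. They belong to Il3ra (chr14:14346245-14346544, plus strand) and Csf2ra (chr19:61228369-61228668, minus strand), which encode receptor subunits for interleukin-3 and for GM-CSF, and to Duxf3 (chr10:58233040-58233339, minus strand), a transcription factor gene of the Dux family, which is active at the 2-cell embryo stage.
Il3ra: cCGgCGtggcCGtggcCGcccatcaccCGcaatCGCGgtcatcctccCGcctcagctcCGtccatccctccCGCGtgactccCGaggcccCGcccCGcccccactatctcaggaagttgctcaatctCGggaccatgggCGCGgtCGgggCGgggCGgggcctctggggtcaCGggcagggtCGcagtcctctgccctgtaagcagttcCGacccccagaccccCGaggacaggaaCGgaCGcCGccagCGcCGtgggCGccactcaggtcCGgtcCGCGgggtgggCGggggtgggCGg
Csf2ra: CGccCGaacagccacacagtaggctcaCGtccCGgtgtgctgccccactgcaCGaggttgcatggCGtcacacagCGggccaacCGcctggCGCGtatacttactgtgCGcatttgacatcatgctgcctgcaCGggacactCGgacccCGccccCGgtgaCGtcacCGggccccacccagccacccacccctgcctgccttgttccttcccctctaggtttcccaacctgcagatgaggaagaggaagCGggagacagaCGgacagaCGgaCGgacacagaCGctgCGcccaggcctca
Duxf3: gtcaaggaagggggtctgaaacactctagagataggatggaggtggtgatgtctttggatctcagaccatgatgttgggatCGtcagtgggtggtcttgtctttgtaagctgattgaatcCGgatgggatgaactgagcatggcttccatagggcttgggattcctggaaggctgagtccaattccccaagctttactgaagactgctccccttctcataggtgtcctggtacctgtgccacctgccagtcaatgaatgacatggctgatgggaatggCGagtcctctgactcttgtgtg
Il3ra carried 35 CG and Csf2ra 23, against 3 in Duxf3, and 6.95%, 21.5% and 76.7% of all windows had at least as many.

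Among promoter windows, repetition of this kind was more common at these peaks than at other peaks. Most of the 344 touched no promoter window and were not scored. Of the 32851 promoter windows in the table, 45 touched at least 1 of the 344 peaks, and 44 of them had at least 100 readable runs of 20 bases. In 19 of the 44 (43.2%, 28.3 to 59.0%), at least 50% of the runs recurred in another promoter window. The share was 4.05% of the 4248 windows that touched other H3K9me3 peaks alone (3.48 to 4.69%) and 5.52% of all 32849 windows that could be scored. All 19 belonged to predicted genes, and they stood at 18 peaks. Those peaks were not all dense in control. The pairs printed above lay at denser peaks of lower fold. Other windows of the 19 lay at wide peaks, such as Gm52796 (1.59 control tags per kb, fold 15.93) and Gm42226 (1.54 per kb, fold 20.81). The 11 windows of genes with an established name at these peaks had at most 9.25% of their runs shared. The comparison sets were not split into predicted and named genes, so gene type and control count cannot be told apart here. Windows of 1 family share their sequence, so the interval treats as separate what is partly 1 source.

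**Figure D1:**
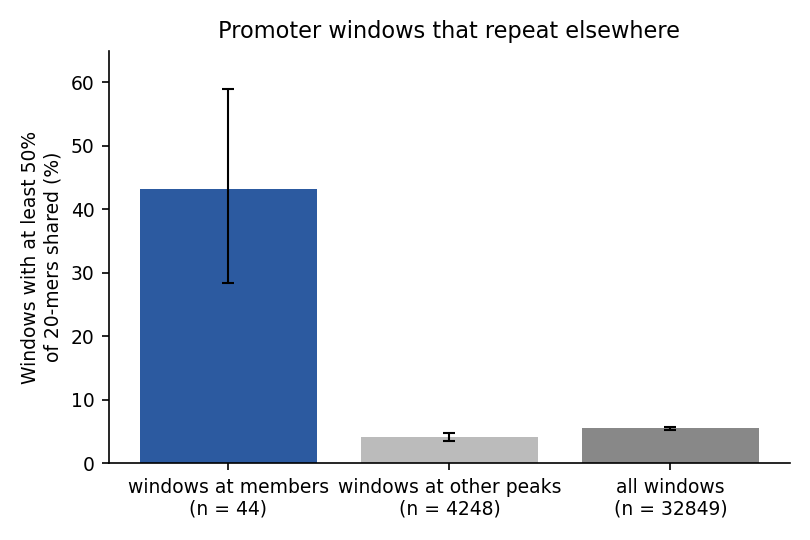
Share of promoter windows in percent of which at least 50% of 20-base runs recur in another, non-overlapping promoter window, for windows that touch the 344 peaks, windows that touch other peaks alone, and all windows, with exact 95% intervals. The bar of the 344 peaks stands at 43.2%, against 4.05% and 5.52%.

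A threshold on tags is not one on tags per kb, and the densities describe the choice. Together the 344 held 131 ChIP tags per kb (131 to 132) and 13.4 control tags per kb (13.2 to 13.6), from summed tags over summed width. All other peaks held 26.2 ChIP tags per kb and 1.60 control tags per kb. In 268 of the 344 (77.9%), the lower bound of the control density lay above the 1.60 of the other peaks. In the remaining 76 it did not, so a raised density was not shown for any of them taken alone. In 9 of those the estimate itself lay below 1.60 per kb. For these 9, high control signal means a high count and not a high density. With more than 10 control tags required, only a wide peak can have so low a density, and the 76 had a median width of 6269 bp. Together the 76 held 39.6 ChIP tags and 2.12 control tags per kb (1.99 to 2.25, above the 1.60). Their median fold over control was 11.35. The other peaks are not a neutral yardstick, since the caller kept no peak under a fold of 4 and 43.0% of all peaks stood at the lowest control value of 0.5 tag.

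**Figure D2:**
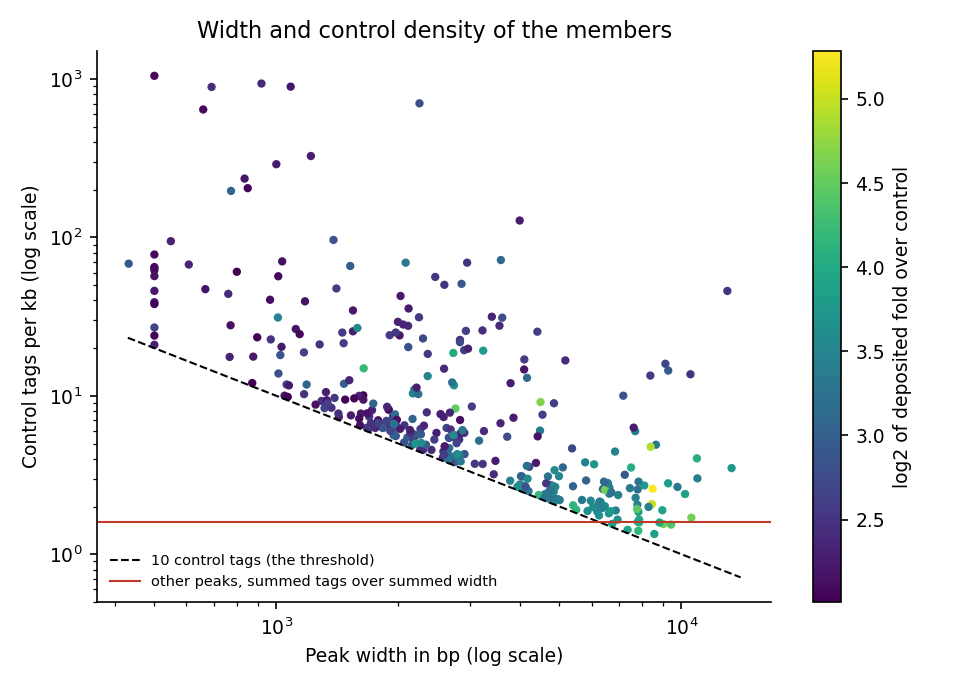
Control tags per kb against width in bp for the 344 peaks, both on log scales, 1 point per peak, coloured by the log2 of the deposited fold over control. The dashed line is the threshold of 10 control tags and the solid line the 1.60 control tags per kb of all other peaks. Most wide peaks lie low on the plot, near the solid line, and narrow ones reach 1048 control tags per kb.

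The threshold ties width to control density, since a peak with more than 10 tags can have a low density only if it is wide. What follows on both is a description of the chosen peaks. The median width was 2661.5 bp (quartiles 1708 and 4839), against 766 bp in the other peaks, and 139 of the 344 (40.4%) spanned 3 kb or more, against 0.837% of the others. The 83 peaks under 3 control tags per kb had a median width of 6315 bp and a median fold of 11.35. The 47 peaks over 30 control tags per kb had a median width of 1009 bp and a median fold of 4.87. Those 47 held 50.5% of the ChIP tags and 60.3% of the control tags of all 344. The rank correlation of ChIP with control density was 0.88 over the 344 peaks and 0.55 over the other peaks, given as a description, since both tag counts of a peak share its width and its sequence.

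Measured as fold over control, the 344 stood lower than the rest of the list. The authors' deposited fold is the ChIP tag count scaled to control depth over the control tag count. Its median was 6.45 in the 344 (quartiles 5.13 and 10.26) and 12.32 in the other peaks, and the ratio of summed tags was 6.70 against 11.2. A fold of at least 8 was reached by 136 of the 344 (39.5%), beside 79.4% of all peaks, from which nothing is read, because the control count that chose the peaks is the denominator of the fold. Folds under 5 were found at 75 of the 344 (21.8%) and at 1.54% of the others. With 3.30% of the width of all peaks, the 344 held 14.6% of the ChIP tags and 22.3% of the control tags in peaks. At the threshold itself, 26 peaks had 10.5 control tags, with 62 to 273 ChIP tags and a median fold of 7.43. Just outside, 41 peaks had 10 control tags, with 58.5 to 239 ChIP tags and a median fold of 6.94.

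**Figure D3:**
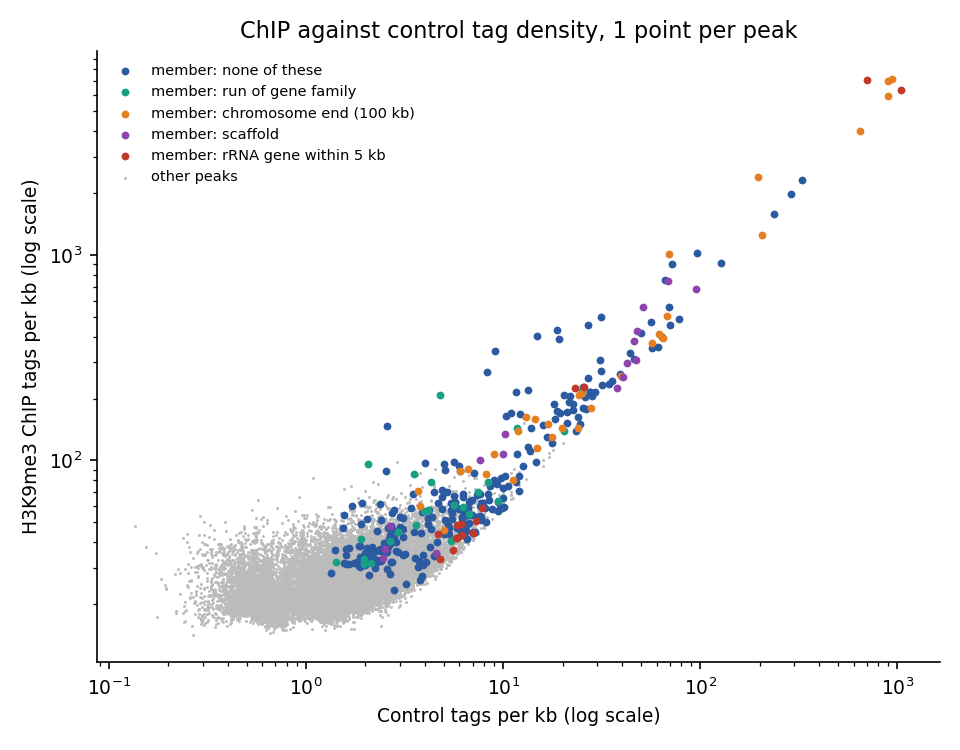
H3K9me3 ChIP tags per kb against control tags per kb, both on log scales, 1 point per peak, with the 344 peaks (members in the key) coloured by location and all other peaks in grey. A group of 6 peaks at upper right starts at 4002 ChIP and 642 control tags per kb, and the lower right edge of the cloud is the caller's lowest fold of 4.

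The densest signal of all lay at a copy of ribosomal DNA and at the tips of 4 chromosomes. The same 6 peaks led by ChIP density and by control density, and each had at least 4002 ChIP tags and 642 control tags per kb. The next peak by ChIP density had 2391 tags per kb, and the next by control density had 327. Of the 6, 2 flank the pseudogene Rn18s-rs5, a copy of 18S ribosomal RNA sequence on chromosome 17, and 4 are the last peaks of chromosomes 7, 14, 18 and 19. They held 24.98% of the ChIP tags and 30.5% of the control tags of all 344.

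At Rn18s-rs5 (chr17:39846354-39848202), neither peak lay in the pseudogene. The first (chr17:39842469-39844725) ended 1629 bp before it and held 16076 ChIP tags and 1585.5 control tags, or 7126 and 703 per kb, at a fold of 6.94. The second (chr17:39848375-39848875) began 173 bp after it, inside the long non-coding RNA gene AY036118, and held 3165 ChIP tags and 524 control tags, or 6330 and 1048 per kb, at a fold of 4.13. The first peak had the most tags of both libraries in the list. No other peak lay within 5 kb of the pseudogene, and the gene Rn45s is not in the gene table used here.

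The genes of 5S ribosomal RNA, which RNA polymerase III transcribes outside the nucleolus, showed a far lower density than Rn18s-rs5. Their array on chromosome 8 has 41 annotated genes spaced by a median of 1701 bp, and 11 of the 344 peaks lay in it, over 13 of the genes. They held 33.0 to 58.7 ChIP tags per kb and 4.65 to 7.83 control tags per kb, each range over 11 peaks. Folds ran from 4.33 to 6.45, so none reached 8. A further 17 peaks in or within 5 kb of the array had at most 10 control tags. The summed densities, at 44.6 ChIP tags (42.4 to 46.8) and 5.99 control tags per kb (5.20 to 6.86), stood below those of the 344 as a whole.

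Rn4.5s opened a longer row of peaks on chromosome 6. Between positions 47653786 and 47778657 there were 17 of the 344 peaks and 1 other peak, in a first run of 8 and a second of 9 that were 51617 bp apart. Within the runs, peaks started 3123 to 6677 bp apart, with a median of 4471 bp. Densities ran from 159 to 472 ChIP tags per kb and from 18.4 to 56.3 control tags per kb, and folds only from 4.69 to 6.77. The row includes the windows of Gm40364, Gm40369 and Gm52861 printed above. It held 7.17% of the ChIP tags and 8.33% of the control tags of the 344. Only 2 of the 17 lay within 5 kb of the annotated Rn4.5s gene (chr6:47654921-47655094).

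In all, 15 of the 344 peaks (4.36%, 2.46 to 7.09%) lay within 5 kb of a gene or copy annotated as ribosomal RNA, against 0.0603% of the other peaks. These 15 were the 11 of the 5S array, 2 at Rn4.5s, which is counted by its annotated type, and 2 at Rn18s-rs5. Of 77 listed genes and copies of this kind, 40 had one of the 344 peaks within 5 kb, against 0.651% of all 49595 genes. In the closely spaced 5S array, 1 peak reaches several genes, so the 40 are not separate hits. Transfer RNA genes, which are also repeated and read by RNA polymerase III, had one at 15 of 403. Of these, 12 were touched outright by a row of 5 peaks beside Fcgr3, an immunoglobulin Fc receptor gene on chromosome 1 (171063559 to 171084772). The row held 83.4 ChIP tags and 10.9 control tags per kb, and its folds of 4.77 to 6.01 overlapped those of the 5S array.

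**Figure D4:**
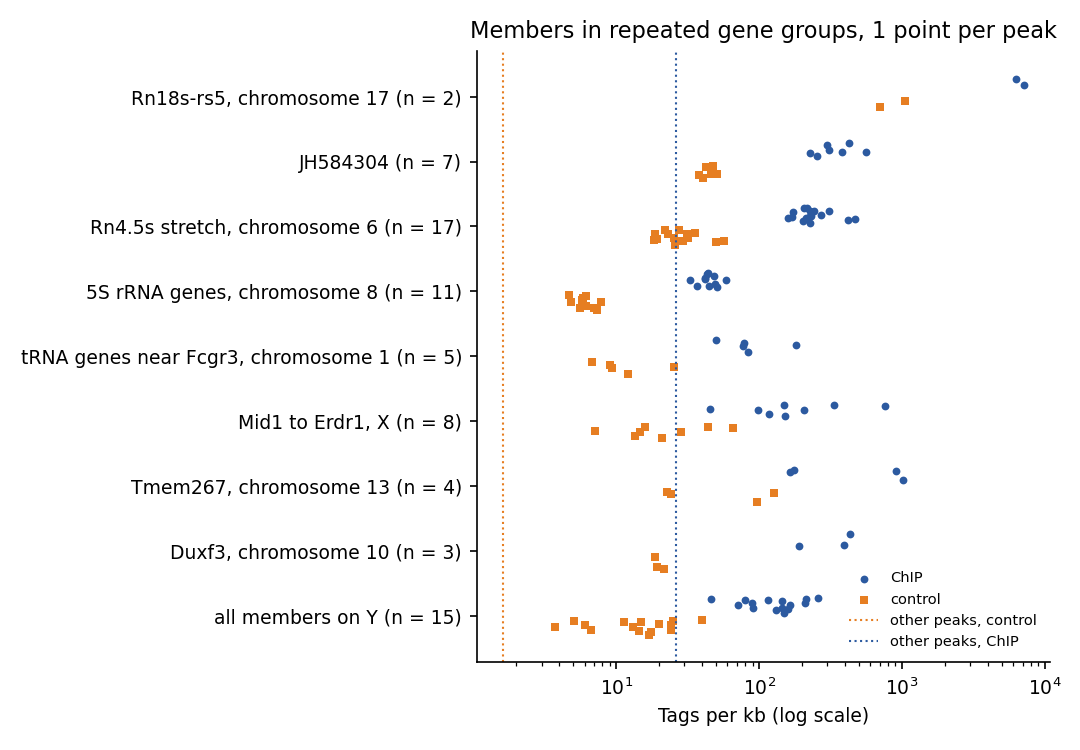
H3K9me3 ChIP and control tags per kb on a log scale in repeated gene groups, 1 point per peak, with dotted lines at the summed densities of all other peaks (26.2 ChIP and 1.60 control tags per kb). The gap between ChIP and control is alike in most groups. It is widest for 2 of the 3 Duxf3 peaks (folds of 13.90 and 15.84) and nearly as wide for the last peak of Y (13.09). The summed ChIP level is 6981 tags per kb at Rn18s-rs5 and 44.6 in the 5S array.

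Chromosome ends differed by side. The last peak of a chromosome was among the 344 on 9 of 21 chromosomes (1, 5, 7, 13, 14, 16, 18, 19 and Y) and the first peak on 0 of 21. The last peaks of chromosomes 7, 14, 18 and 19 held 5963, 7227, 7052 and 4002 ChIP tags per kb. Their control densities were 895, 937, 892 and 642 tags per kb, and their folds 4.56, 5.28, 5.41 and 4.26. Chromosome 1 had 2391 ChIP and 197 control tags per kb there, chromosome 13 had 1245 and 205, chromosome 5 had 502 and 67.4, and chromosome 16 had 375 and 57.0. These 8 were short, at 500 to 1085 bp, whereas the last peak of Y was 6088 bp wide with 70.7 ChIP and 3.70 control tags per kb and a fold of 13.09.

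The last peaks of the other 12 chromosomes held 17.1 to 160.2 ChIP tags per kb and 0.5 to 8.5 control tags in all. The 21 first peaks held 18.5 to 47.6 ChIP tags per kb and 0.5 to 4 control tags. The 9 and the 12 do not overlap in control tags, which is what the choice fixes. In ChIP density they overlap only through the wide Y peak, at 70.7 tags per kb. The rest of the 9 held at least 375. The choice sets a floor on ChIP tags too, since the caller kept no peak under a fold of 4. Nothing is therefore read from the gap in ChIP density. Within 100 kb of the last peak edge there were 25 of the 344 (7.27%, 4.76 to 10.5%), against 0.194% of the other peaks, and 15 of the 25 lay on Y. Within 100 kb of the first peak edge there were 6, of which 5 lay on chromosome 11 at or near Sfi1. The 10 at last ends outside Y held 1939 ChIP tags (1915 to 1964) and 262 control tags per kb (253 to 271), at a ratio of 5.06. Distances are to the outermost deposited peak, and chromosome lengths were not used here.

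**Figure D5:**
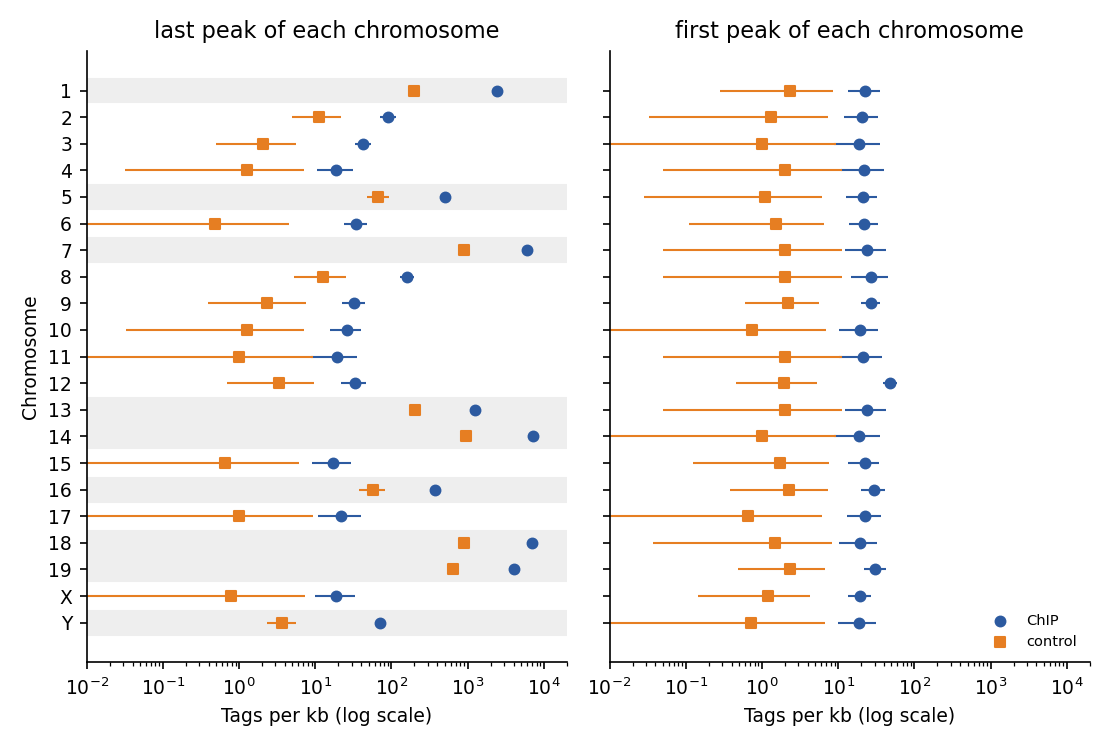
ChIP and control tags per kb on a log scale for the last and the first peak of each chromosome, with exact Poisson 95% intervals and grey bands on the 9 peaks that are among the 344. No first peak is banded, and the last peaks of chromosomes 7, 14, 18 and 19 stand highest, at 4002 to 7227 ChIP and 642 to 937 control tags per kb.

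The sex chromosomes contributed at their shared end. X and Y pair over the pseudoautosomal region, whose genes in the mouse include Mid1 at the boundary, Erdr1 and Asmt. All 15 peaks of Y among the 344 lay in its last stretch (90730640 to 90829820), with 46.1 to 257 ChIP tags per kb, 3.70 to 39.5 control tags per kb and a median fold of 5.93. They were 17.4% of the 86 peaks on Y, and 3 of them lay within 5 kb of Mid1-ps1, a partial copy of Mid1. On X, 8 of the 14 lay from Mid1 to Erdr1 (169980401 to 170020443), with 45.1 to 759 ChIP tags per kb and 7.06 to 66.0 control tags per kb. Asmt, which encodes the last enzyme of melatonin synthesis, had 1 peak (chrX:170672317-170677487) with 130.2 ChIP and 16.7 control tags per kb. Folds were 4.37 to 7.86 from Mid1 to Erdr1 and 5.32 at Asmt, within the 4.11 to 13.09 of Y. The other 5 peaks on X lay elsewhere, at Bcor, Smarca1, Taf7l, the pair Tsix and Xist, and 1 place without a gene. Xist makes the RNA that silences an X chromosome and Tsix is its antisense transcript. The peak there (chrX:103455164-103456840) lay inside Tsix and did not overlap Xist (103460373 to 103483233). It held 86 ChIP and 13 control tags at a fold of 4.53.

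Some human genes of the pseudoautosomal region on Xp and Yp have autosomal counterparts in the mouse, and some of these appeared too. They were looked up after Il3ra and Csf2ra had been seen, so their count describes the list and no more. Of 15 gene names of that human region, 6 were in the gene table, and all 6 had a peak of some kind within 5 kb. Il3ra, Csf2ra, Crlf2 and Asmt had one of the 344. Asmt is the gene on X given above, so only the first 3 are autosomal. Crlf2, the receptor subunit for thymic stromal lymphopoietin, lay at a peak on chromosome 5 inside a run of vomeronasal genes (109549990 to 109557503), which held 85.6 ChIP and 3.53 control tags per kb at a fold of 16.60. Il3ra had 70.2 ChIP and 4.45 control tags per kb at a fold of 10.80. Csf2ra had 88.8 and 6.03 at a fold of 10.07. These 3 autosomal peaks were wide, at 4477 to 7513 bp, and had a higher fold than any of the X peaks from Mid1 to Asmt.

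Scaffolds, pieces of sequence that the assembly gives no position on a chromosome even where it assigns them to one, held 16 of the 344 (4.65%, 2.68 to 7.44%) and 0.329% of the other peaks. All 7 peaks of the scaffold JH584304 were among the 344. They held 226 to 561 ChIP tags per kb and 38.0 to 50.9 control tags per kb, so the ChIP density varied more along the scaffold than the control, and folds ran from 4.07 to 7.53. The largest of them, 12985 bp wide, held 4974.5 ChIP tags and 596.5 control tags. The 16 peaks had 214.9 ChIP and 24.0 control tags per kb, against 31.2 and 2.33 for the 131 other peaks on scaffolds.

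Runs of named gene families held about the same share of these peaks as of the others. A run was at least 4 genes with a shared symbol stem and gaps of at most 500 kb. Genes with Gm, LOC or Rik names and those of microRNA, small nucleolar RNA, transfer RNA and 5S RNA were left out by symbol. The chromosome 6 row, the 5S array, the transfer RNA row and a chromosome 8 cluster near 55 Mb thus counted as no run. The share therefore does not cover all duplicated genes. Of the 344 peak centres, 26 lay in a run (7.56%, 5.00 to 10.9%), against 8.45% of the others. Among the 26, 2 were the Rn18s-rs5 peaks, which fall within a run of Esp genes, a family of pheromone peptides. Zfp runs, of zinc finger genes, held 8 of the 344 and 552 other peaks, with 54.3 ChIP and 4.39 control tags per kb. Vmn runs, of vomeronasal pheromone receptors, held 6 and 584, with 124 ChIP and 4.72 control tags per kb. Olfactory receptor runs held 1 and 410. By gene list, 5 of 416 Zfp genes, 7 of 638 vomeronasal receptors, 3 of 70 canonical histone genes (H2ac23, H2bc23 and H4c17, at 1 peak) and 0 of 1427 olfactory receptors had one of the 344 within 5 kb. The share over all genes was 0.651%. These counts are small and several genes can share 1 peak, so nothing is read from them. Of 28 lists, 12 had any such gene, among them Speer genes (1 of 15, Speer4cos) and genes of the 2-cell stage (2 of 84). A list made by symbol for multicopy genes of Y had 2 of 9, of which Mid1-ps1 lies on Y and Mid1 on X.

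Among the 344, the 3 highest folds stood within 5 kb of vomeronasal genes, and none of the 3 peaks overlapped one. High fold was not general at such genes. The remaining listed receptors near one of the 344 had lower folds, 12.49 at Vmn1r48, 5.95 at Vmn2r29 and 4.68 at Vmn2r-ps16. The top fold, 39.03, was on chromosome 18 (3112446 to 3120941), before Vmn1r238 (3122492 to 3123412), with 1255 ChIP tags and 22 control tags. The next, 31.94, was between Vmn1r2 and Vmn1r3 on chromosome 4 (3174434 to 3182886), with 817 and 17.5. A peak on chromosome 7 (12009923 to 12018318), after the receptor pseudogene Vmn1r-ps60 (12005032 to 12005681), followed at 29.76, with 1739.5 and 40 tags. These 3 peaks were 8395 to 8495 bp wide, with 96.7 to 207 ChIP tags per kb and 2.07 to 4.76 control tags per kb. A peak on chromosome 15 (91906239 to 91910729) followed at 25.42, and peaks on chromosome 18 (20614791 to 20623810) and chromosome 3 (6297278 to 6307861) both had 24.02. The lowest folds were 4.02 at a peak in Epha3, an ephrin receptor gene on chromosome 16, and 4.02 at a peak between genes on chromosome 12 (93576877 to 93577676), next to the caller's limit.

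Some other genes had several of the 344 peaks each. Sfi1, which encodes a centrosome protein with many short repeats, had 5 peaks within 5 kb on chromosome 11, of 86.1 to 1008 ChIP tags and 8.18 to 69.3 control tags per kb. The tallest of them (chr11:3192161-3194247) had a fold of 9.96. Tmem267 on chromosome 13, a gene of a membrane protein, had 4, and the one with most tags (119595849 to 119599837) had 3631.5 ChIP tags and 510 control tags, or 911 and 128 per kb, at a fold of 4.87. Duxf3 had 3, with 191.7 to 432 ChIP tags per kb but an even control of 18.6 to 21.5 per kb, and its folds were 13.90, 6.10 and 15.84. Tcstv3, another gene of the 2-cell stage, had 1, the last peak of chromosome 13 (120320810 to 120321660), which did not overlap it. A cluster of predicted genes on chromosome 8 (55112461 to 55374856) had 10 peaks, all at folds of 8.34 to 22.24, with 185.7 ChIP and 9.83 control tags per kb. The control density of Duxf3 was within the range of the Rn4.5s row, and 2 of its 3 folds were above every fold there.

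Protein-coding genes held 106 of the 344 peak centres (30.8%, 26.0 to 36.0%) and 46.8% of the others, while 181 (52.6%) lay between genes, against 44.5%. Of the 5 widest peaks, those in Flg and Eppk1 overlapped a gene of the table, which covers chromosomes and not scaffolds, and both genes encode internally repeated proteins. Flg, the skin barrier protein filaggrin, had the widest of the 344 (chr3:93280030-93293330, 13300 bp), with 68.9 ChIP and 3.50 control tags per kb at a fold of 13.48. Eppk1, epiplakin, had 97.3 and 4.03 at a fold of 16.53 over 10922 bp. Ahnak2, Plec and Muc3, chosen after their values were seen, had lower folds. Ahnak2 had 111.5 ChIP and 13.7 control tags per kb over 10527 bp at a fold of 5.58. Plec had 2 peaks at folds of 10.04 and 6.89, and Muc3 had 60.2 ChIP and 7.67 control tags per kb over 1694 bp at a fold of 5.37. Zc3h7a, a zinc finger protein gene on chromosome 16, had a short peak (835 bp) with 1576 ChIP and 235 control tags per kb. Of a list of 24 imprinted genes, Gnas and Impact had 1 each (2 of 24), at folds of 10.66 and 7.95, and the Gnas peak also touched its antisense gene Gnasas1. Snhg14, an imprinted non-coding RNA gene of another list, had 2, at folds of 5.62 and 4.89.

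A few places accounted for much of the signal. Joined where gaps were at most 10 kb, the 344 peaks formed 267 loci, of which 242 were single peaks. The 25 loci of at least 2 peaks held 102 peaks, and the 8 of at least 5 held 59. The 10 loci with most control tags held 44.3% of the ChIP tags and 52.2% of the control tags of the 344. Scaffolds, ribosomal RNA genes, chromosome ends and gene runs together took in 86 of the 344 (25%, 20.5 to 29.9%), against 9.23% of the others. The 258 outside all of these classes held 49.4% of the control tags. Examples outside them were a peak of chromosome 11 (109011383 to 109012600) with 2837 ChIP and 397.5 control tags, and one of chromosome 15 (75086452 to 75087452) with 1988.5 and 290 tags.

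Markers of the sorted cells could not check their identity, since a silencing mark does not measure expression. None of 10 crypt stem cell markers, 0 of 6 immune markers and 0 of 4 mesenchymal and endothelial markers had one of the 344 peaks within 5 kb. At the 0.651% of all genes that had one, lists this short would hold none in most cases.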

How the data were processed

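H3K9me3 ChIP and control libraries were each 1 library from pooled sorted cells. The builds GRCm38 and mm10 and the tools Bowtie2 2.2.8 and HOMER 4.10.1 are named, without a role, in the submitters' processing notes. Per the file headers, the deposited list has the columns of HOMER findPeaks, with caller options not given in the sources used here. Both deposited tag columns, normalized ChIP and control, are a coverage signal, the score in the authors' list comes from the caller, and the deposited fold over control is a ratio. The authors' p-value per peak was at most 8.32e-05 and was not used. ChIP tags were recovered from the normalized count, in which 0.5 tag was worth 0.524. Of the values below 30, 100% were whole steps within a tolerance of 0.1 step. Control and ChIP tags come in steps of 0.5, so Poisson bounds use the continuous form. Densities are summed tags over summed width unless a peak is named.

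Genes came from a RefSeq table of GRCm38.p6, which gives spans without strand, exons or repeats. After 348 genes whose order showed scaffold coordinates were left out, 49595 remained, 21774 of them protein-coding. Promoter sequences came from RefSeq too. Of the 344 peaks, 114 had no gene within 5 kb. Members and gene lists were chosen with earlier results of these data known. Named were the 10 peaks with most control tags, the 10 loci with most members, the 15 genes with most members, up to 4 genes per list, the extremes of fold and width, and the ribosomal RNA genes. Other names, and the row on chromosome 8 near 55 Mb, the homologues of human pseudoautosomal genes and the promoter comparison, were chosen after values were seen. Tag recovery, sequence sharing and locus joining were tested on simulated data. Alternatives were other thresholds, windows and overlap rules. No test between samples was made. Python 3.11 was used.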

Additional observations from a re-analysis of the deposited data

How the results depend on the processing

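Of 82 alternative values, 42 stayed within the interval of the reported value, or within 1.5 times a count, and 40 did not. These intervals cover counting error and so are narrow for densities.

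The threshold moved most values. With control tags above 8, 15 and 20, there were 575, 173 and 125 peaks in 479, 115 and 77 loci. ChIP density was 102.8, 212 and 287 tags per kb and control density 10.2, 22.5 and 31.2, with 25.1%, 19.4% and 18.3% of the control tags in peaks. The median fold was 6.02 above 15 and 5.93 above 20, and 33.5% and 27.2% reached a fold of 8. Chromosome ends took 15.6% above 15 and 18.4% above 20, and above 20 scaffolds took 8.00% and gene runs 4.80%.

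On chromosomes alone, ChIP density was 127.8, control density 12.97 per kb and the share of control tags 20.6%. Without the peaks at ribosomal RNA genes they were 117.5, 11.8 and 18.9%. Without the 1% of the 344 with most control tags they were 107.8, 10.7 and 17.6%. The medians of per-peak densities were 59.5 ChIP and 6.28 control tags per kb. Windows of 50 kb and 1000 kb at chromosome ends gave 5.52% and 15.7%. Peaks within 5 kb of a gene of a run were 2.91%. A fold of 6 was reached by 58.1% and a fold of 10 by 27.3%. With at least 80% of runs shared, an alternative chosen after seeing the data, the promoter share was 22.7%, against 2.05% at other peaks. The cause of these shifts was not tested.

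The control library is seen only within peaks called from the ChIP library, and the rest of the control library was not analysed here. A single pool of mice, a caller limit of fold 4 and control counts in steps of 0.5 limit every fold given. No paired analysis was possible because each group has 1 library.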
